A study of Mus musculus with 12 samples.

Results

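The transcripts described are those of 41 cell cycle genes, taken by name from a fixed list: 21 that act in DNA replication (Pcna to Cdt1) and 20 that act in mitosis (Kif11 to Mki67). They are 41 of the 22195 genes to which reads were summed, and the list sets no threshold on a measured value. The list was chosen with earlier results of these data known. The RNA came from whole tumours that grew under the skin of immunocompetent C57BL/6J mice after injection of YUMM 2.1, a cultured mouse melanoma line that the series title places among melanomas driven by β-catenin. Treatment began when tumours measured 20 to 50 mm3, and the 4 groups of 3 libraries each received isotype control IgG, anti-B7-H3, anti-PD1, or the combination of both antibodies. B7-H3 (gene Cd276) is a surface protein of the B7 family of checkpoint ligands, and PD1 (gene Pdcd1) is an inhibitory receptor of T cells. All groups therefore share the same line and mouse strain. The labels give neither the age of the mice nor the antibody doses, nor do they tie libraries to single animals. The p-values therefore measure the spread between these libraries, which may be technical in part or in whole. They may not extend to other tumours under the same treatment. The tumours are a transplanted line in a host with its own immune and stromal cells, and bulk RNA mixes them all.

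A dividing cell copies its DNA once and then parts the copies. Before S phase, loading factors such as Cdc6 and Cdt1 place the ring-shaped MCM helicase on origins, cyclin E promotes entry into S phase, and at the fork the sliding clamp Pcna holds the polymerases to DNA while ribonucleotide reductase supplies nucleotides. Transcription of many of these genes is driven by E2F factors. The mitotic genes are transcribed later: cyclins A and B with Cdk1 drive entry into mitosis, Aurora and Polo-like kinases and kinesins build the spindle, kinetochore proteins attach chromosomes to it, and Bub1, Bub1b and Cdc20 belong to the checkpoint that times their separation. Many promoters of this later group carry a cell cycle homology region, CHR for short, that a repressor complex binds in resting cells. Mki67, which encodes the Ki-67 antigen, is the usual histological marker of proliferation.

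Isotype control libraries are called the controls below. Depth differed between groups, and it bears on every value that involves isotype control. Totals ran from 15585622 to 21298142 reads per library in the controls, 3593110 to 3937727 under anti-B7-H3, 8099713 to 10527704 under anti-PD1 and 4409772 to 5014931 in combination, but 12 satellite-like genes took 92.5% ± 1.93 (SD, n = 3), 0.145% ± 0.0680, 72.0% ± 2.99 and 31.4% ± 2.22 of them. Those genes were picked for a far larger share in isotype control than in anti-B7-H3, so the contrast of these 2 groups is set by the choice. Their name rests on read shares, not on sequence. The 41 genes together held 3463 to 4867 reads per library in the controls against 11198 to 11790 under anti-B7-H3, 12697 to 13944 under anti-PD1 and 13871 to 16558 in combination. Reads over 1545 olfactory, vomeronasal and taste receptor genes, which a tumour should not transcribe, gave the background to be expected per kilobase of coding length. It amounted to 19.2% ± 2.31 of the members' reads in the controls, 0.0842% ± 0.00844 under anti-B7-H3, 4.16% ± 0.286 under anti-PD1 and 0.485% ± 0.0128 in combination (SD, n = 3). All 41 members passed the filter on low counts, and 37 had at least 5 times the expected background on average over the 12 libraries. The 4 below that mark were Cdc6, Ccne1, Ccne2 and Rfc4; in the controls Ccne1 had 28 reads where 26.9 were expected and Rfc4 27 where 24.4 were expected, so their levels there could not be told from background. Values below are normalized reads, meaning counts scaled to a common effective library size by TMM, unless a scale is named. On that scale the 8383 genes above background lay at a median log2 fold change of 0.30 under anti-B7-H3, 0.18 under anti-PD1 and 0.30 in combination against isotype control, so a member at 0 was below the typical expressed gene in those comparisons.

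**Figure D1:**
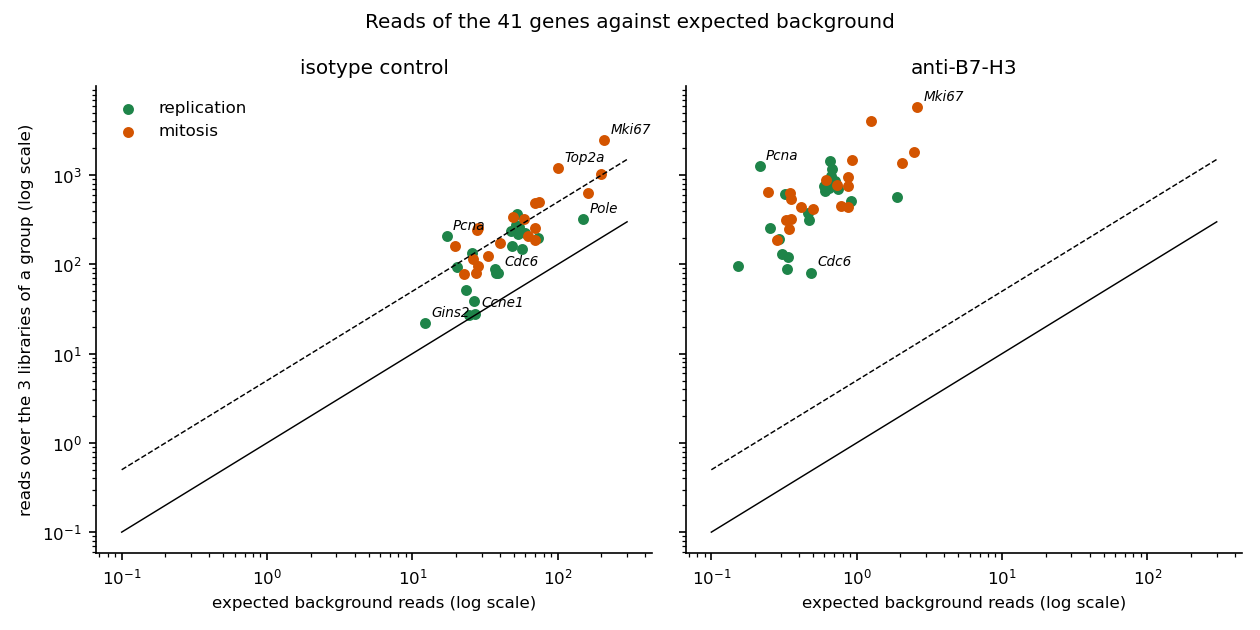
Reads of each gene summed over 3 libraries (vertical, log scale) against the background reads expected from chemoreceptor genes (horizontal, log scale) in the controls (left) and the anti-B7-H3 libraries (right); the solid line marks equality and the dashed line 5 times the background. In isotype control Ccne1 lies on the solid line and Mki67, with 2472 reads against 209 expected, far above it, while in anti-B7-H3 every gene lies above the dashed line.

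The anti-B7-H3 tumours held the least mitotic transcript. Summed over the 20 mitosis genes, normalized reads were 8136, 7747 and 7871 in the isotype control libraries, 4293, 4483 and 4491 under anti-B7-H3, 9103, 9246 and 9215 under anti-PD1 and 7334, 7163 and 7209 in combination. No anti-B7-H3 library came near those of another group, and the combination lay between the 2 single antibodies. The SD of this sum was 198, 112, 75.5 and 88.9 in the same order of groups. Whether it holds any spread between tumours was not tested. With expected background subtracted and scaling over the genes above background the mitosis sums were 10001 ± 255, 3663 ± 88.9, 8607 ± 121 and 5998 ± 84.3 in the same order of groups (SD, n = 3), so that anti-PD1 then lay below the controls and the combination further below them. The replication sum was less spread over the groups: 2881 ± 258 in the controls, 2343 ± 72.9 under anti-B7-H3, 3245 ± 23.7 under anti-PD1 and 3010 ± 68.4 in combination (SD, n = 3), or 3042 ± 303, 1940 ± 56.7, 2942 ± 19.7 and 2488 ± 55.2 with background subtracted. The ratio of mitosis to replication reads within a library needs no scaling between libraries. It was 2.63, 2.99 and 2.67 in the controls, 1.87, 1.85 and 1.95 under anti-B7-H3, 2.82, 2.86 and 2.82 under anti-PD1 and 2.42, 2.34 and 2.46 in combination. Isotype control and anti-PD1 overlapped on this measure, the combination lay below both, and anti-B7-H3 was lowest without overlap. With expected background subtracted the ratios were 3.31 ± 0.424, 1.89 ± 0.0537, 2.93 ± 0.0342 and 2.41 ± 0.0610 in the same order (SD, n = 3). Without Mki67, Top2a and Cenpf, the 3 mitosis genes with the most reads, they were 1.32 ± 0.129, 0.908 ± 0.0186, 1.37 ± 0.0287 and 1.17 ± 0.0218. In bulk samples like these, fewer cells in cycle and less of these RNAs per cycling cell cannot be told apart.

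**Figure D2:**
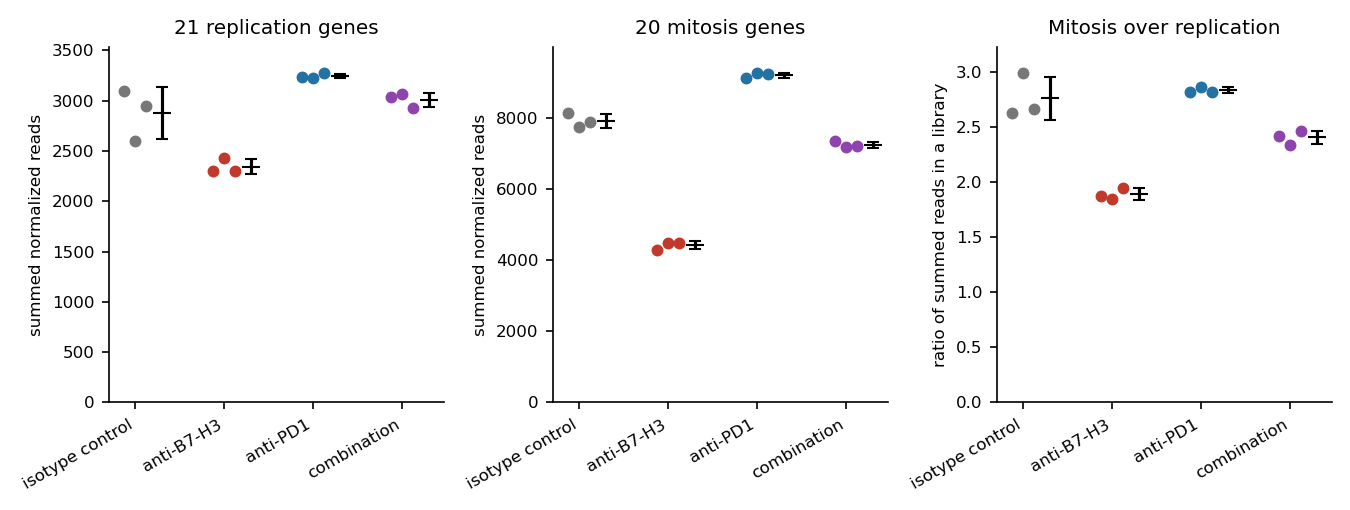
Summed normalized reads of the 21 replication genes and the 20 mitosis genes, and the ratio of mitosis to replication reads, for each of the 12 libraries (points), with the mean and SD of each group (black bar). Anti-B7-H3 libraries are lowest in all 3 panels, with a ratio of 1.85 to 1.95 against 2.34 or more in every other library.

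Promoter sequence was compared because the 2 sets moved to a different extent. RefSeq promoter windows of GRCm38.p6, running from 250 bases before to 50 bases after the annotated start, were found for 33 of the 41 members, 17 for replication and 16 for mitosis. Each was searched on both strands for the E2F letters TTTCCCGC, TTTGGCGC, TTTCGCGC and TTTGCCGC, the CHR letters TTTGAA and TTTAAA, and the CCAAT box, with overlapping matches kept. An E2F match was present in 9 of 17 replication and 1 of 16 mitosis genes, against 2.6% of all 27025 genes with a window. A CHR match was present in 6 of 17 and 14 of 16, against 30.6%, and CCAAT in 11 of 17 and 14 of 16, against 41.1%. A match describes the letters only, since no binding was measured. In anti-B7-H3 against isotype control, replication genes had a median log2 fold change of -0.24 with an E2F match and -0.14 without. With a CHR match their median was -0.18, and without it -0.21. Mitosis genes were at -0.81 with a CHR match (14 genes) and -0.69 without (2 genes). Any link between matches and these values was not tested. The 150 bases before the start are printed 5′ to 3′ on the strand of the gene, with matches on either strand in capitals, for 2 replication genes (Mcm6 at chr1:128359706-128359855, minus strand, and Cdc6 at chr11:98908001-98908150, plus strand) and 4 mitosis genes (Kif11 at chr19:37376232-37376381, plus, Plk1 at chr7:122159285-122159434, plus, Cdk1 at chr10:69352913-69353062, minus, and Top2a at chr11:99024190-99024339, minus). Within these stretches the first 2 hold the E2F letters without CHR, Kif11, Plk1 and Top2a the CHR and CCAAT letters without E2F, and Cdk1 all of them. In the GENCODE annotation the Plk1 stretch overlaps an exon of an antisense noncoding gene (Gm15489), the Cdc6 stretch lies in an intron of a longer Cdc6 transcript, the Cdk1 stretch touches the first exon, and the others overlap no exon.
Mcm6: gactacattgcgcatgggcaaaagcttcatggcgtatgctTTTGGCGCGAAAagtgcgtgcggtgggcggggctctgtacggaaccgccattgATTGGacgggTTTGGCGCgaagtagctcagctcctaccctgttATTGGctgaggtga
Cdc6: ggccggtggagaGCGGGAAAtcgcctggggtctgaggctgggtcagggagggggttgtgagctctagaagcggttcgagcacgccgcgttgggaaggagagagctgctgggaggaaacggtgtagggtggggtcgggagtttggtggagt
Kif11: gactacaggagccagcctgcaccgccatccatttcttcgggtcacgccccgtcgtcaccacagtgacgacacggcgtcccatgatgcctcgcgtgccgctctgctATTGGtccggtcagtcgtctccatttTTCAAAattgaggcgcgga
Plk1: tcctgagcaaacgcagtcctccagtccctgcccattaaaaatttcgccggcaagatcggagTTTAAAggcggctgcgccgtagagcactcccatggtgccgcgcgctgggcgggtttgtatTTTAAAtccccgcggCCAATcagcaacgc
Cdk1: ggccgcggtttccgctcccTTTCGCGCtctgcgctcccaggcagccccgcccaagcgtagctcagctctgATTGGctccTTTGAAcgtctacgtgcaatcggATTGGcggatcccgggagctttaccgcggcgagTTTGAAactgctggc
Top2a: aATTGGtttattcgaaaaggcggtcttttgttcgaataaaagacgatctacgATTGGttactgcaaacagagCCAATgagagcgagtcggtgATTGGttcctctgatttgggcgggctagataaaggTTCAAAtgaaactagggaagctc

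Against isotype control, anti-B7-H3 tumours had lower mitotic transcript almost throughout: 19 of the 20 mitosis genes were lower and none higher (edgeR quasi-likelihood test, Benjamini-Hochberg adjusted p under 0.05), where 64.1% of all 13478 genes tested were called, 33.3% lower and 30.8% higher. Of the 21 replication genes 8 were lower and 2 higher. The median log2 fold change was -0.84 for mitosis and -0.21 for replication genes, against -0.04 over all genes tested, or -1.14 and -0.50 relative to the genes above background. Values of 17 mitosis genes did not overlap between the groups, all lower in anti-B7-H3, as did 8 replication genes, while 1 replication gene was higher without overlap, where 33.9% of genes tested were lower and 32.8% higher without overlap.

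Cenpf had the largest difference of the mitotic set. This large protein of the outer kinetochore (Cenpf, chr1:189640606-189688086), had 936, 869 and 901 normalized reads in the controls, 323, 346 and 400 under anti-B7-H3, 950, 989 and 1024 under anti-PD1 and 696, 704 and 674 in combination. The highest anti-B7-H3 library lay far below the lowest of any other group, and Cenpf was 2.54-fold lower than in the controls (log2 fold change -1.34 ± 0.07 SE, adjusted p = 1.93e-28, edgeR). Cenpe, the kinesin that carries chromosomes to the spindle equator, had 559, 511 and 627 normalized reads in the controls and 264, 286 and 254 in anti-B7-H3. It was 2.11-fold lower (-1.08 ± 0.08 SE, adjusted p = 1.5e-20, edgeR).

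Among kinesins and spindle proteins, Kif11, the motor that pushes the spindle poles apart (chr19:37376403-37421859), had 358, 463 and 497 normalized reads in the controls and 183, 188 and 191 in anti-B7-H3, a log2 fold change of -1.21 ± 0.09 SE (adjusted p = 3.61e-19, edgeR). Kif23, a motor of the central spindle needed for cytokinesis, fell by 1.03 and the related Kif20a by 0.92 on the log2 scale. Kif20a shares coding sequence with Cdc23 on the opposite strand, and no source used here says whether strand entered the read assignment, so its value is uncertain. Top2a, the topoisomerase that untangles sister DNA (chr11:98992943-99024189), had a smaller difference than the other 4 of the 5 members with the most reads (Mki67, Cenpf, Cenpe and Anln): 1113, 989 and 1066 normalized reads in the controls against 766, 837 and 813 in anti-B7-H3, a log2 fold change of -0.40 ± 0.06 SE. The 2 groups still did not overlap for Top2a, although its call was lost with no filter on low counts (-0.082, adjusted p = 0.216, edgeR). The scaffold protein Anln of the cleavage furrow had 485, 421 and 424 normalized reads against 286, 288 and 288. The spindle assembly factor Tpx2 fell by 0.79, and Nusap1, which bundles microtubules, by 0.45, although Nusap1 was at -0.19 (adjusted p = 0.5, edgeR) without isotype control replicate 1 and lost its call in 6 of the 12 fits that left out 1 library.

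The mitotic cyclins fell with the motors. Ccnb1, the main cyclin of mitotic entry, had 263, 191 and 215 normalized reads in the controls and 101, 105 and 109 in anti-B7-H3 (-1.11 ± 0.12 SE, adjusted p = 1.72e-12, edgeR). Ccna2, which acts in S phase and at mitotic entry, had 208, 209 and 225 against 117, 131 and 122, and Ccnb2 fell by 0.70 on the log2 scale. Their kinase partner Cdk1 (chr10:69335146-69352938) was the exception on the TMM scale. It had 171, 128 and 116 normalized reads in the controls and 127, 133 and 126 in anti-B7-H3, which overlap (-0.13 ± 0.14 SE, adjusted p = 0.402, edgeR). The direction was the same with scaling over the genes above background (-0.43, adjusted p = 0.00504) and with background subtracted as well (-0.79, adjusted p = 8.83e-05, both edgeR), where Cdk1 was called. Of the 16 mitosis genes with a promoter window, Cdk1 alone had an E2F match, which was noticed after its values were seen. Whether that match bears on the values of this 1 gene was not tested. Of the kinases, Plk1 fell by 0.92 and Aurkb by 0.89, and Aurka by 0.53, with Aurka at -0.40 (adjusted p = 0.105, edgeR) without anti-B7-H3 replicate 3 and its call lost in 3 of the 12 fits that left out 1 library.

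The spindle checkpoint genes Bub1 and Bub1b fell by 0.93 and 0.63 on the log2 scale; Bub1b, a kinase-like inhibitor of chromosome separation, had 233, 239 and 214 normalized reads in the controls and 147, 144 and 153 in anti-B7-H3. Cdc20, the activator of the anaphase-promoting complex that the checkpoint holds back, had 90.0, 125 and 122 against 96.2, 70.6 and 90.5. Those groups overlapped, and the call (-0.37 ± 0.16 SE, adjusted p = 0.0377, edgeR) was lost without anti-B7-H3 replicate 2 (-0.17, adjusted p = 0.353) and in 7 of the 12 fits that left out 1 library. Mki67 (chr7:135689784-135716361), the member with the most reads, had 2361, 2106 and 2062 normalized reads in the controls and 1089, 1148 and 1165 in anti-B7-H3. It was 1.92-fold lower with no overlap (-0.94 ± 0.05 SE, adjusted p = 2.55e-26, edgeR).

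On the TMM scale the replication genes did not move as a set. With background subtracted, 17 of them had their lowest group mean in anti-B7-H3 and 4 in the controls. Their summed reads were then 3042 ± 303 in the controls and 1940 ± 56.7 under anti-B7-H3 (SD, n = 3). The sliding clamp Pcna (chr2:132249162-132253314) had 245, 161 and 130 normalized reads in the controls and 241, 256 and 247 in anti-B7-H3, a called rise of 0.44 ± 0.12 SE (adjusted p = 0.00161, edgeR) that the control library at 245 overlaps. It passed neither without isotype control replicate 3 (0.23, adjusted p = 0.106) nor with scaling over the genes above background (0.14, adjusted p = 0.307), and its sign turned to -0.28 (adjusted p = 0.0993, all edgeR) once background was subtracted. On the TMM scale the 6 MCM subunits split: Mcm2 fell by 0.56 and Mcm7 by 0.49, Mcm4 rose by 0.38, and Mcm3, Mcm5 and Mcm6 were at 0.01, -0.14 and 0.01 without a call. Mcm4 lost its call when isotype control replicate 2 was left out (0.22, adjusted p = 0.199, edgeR) and with scaling over the genes above background (0.08). Mcm7 had 203, 212 and 212 normalized reads in the controls and 138, 146 and 161 in anti-B7-H3, without overlap, whereas Mcm6 had 246, 233 and 211 against 225, 240 and 232. Mcm7 lost its call with the effective-length offset (-0.18, adjusted p = 0.544) and with no filter (-0.18, adjusted p = 0.15), and Mcm2 with no filter (-0.24, adjusted p = 0.0564, all edgeR). Subunits of the same helicase thus overlapped between the groups for Mcm6 and not for Mcm7.

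Among genes for nucleotide supply, the reductase subunits Rrm1 and Rrm2 were not called on the TMM scale. Rrm1 had 332, 248 and 391 normalized reads in the controls and 269, 305 and 275 in anti-B7-H3, and Rrm2 122, 105 and 130 against 111, 130 and 121. Per kilobase with background subtracted, both had lower means under anti-B7-H3. Rrm1 was at 74.4 ± 17.2 in the controls against 42.4 ± 2.76, and Rrm2 at 52.5 ± 5.62 against 36.6 ± 2.73 (SD, n = 3). Tyms, which makes thymidylate, fell by 0.72 on the log2 scale. The replicative polymerases were both lower, Pold1, the catalytic subunit of polymerase delta, by 0.80 and Pole, that of polymerase epsilon (chr5:110286306-110337474), by 1.38. Pole had 302, 230 and 321 normalized reads in the controls and 121, 113 and 97.6 in anti-B7-H3, but expected background made up 46.4% of its control reads. Uhrf1, which carries DNA methylation through replication, had 286, 239 and 208 against 133, 150 and 146 (-0.79 ± 0.11 SE, adjusted p = 9.57e-09, edgeR).

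The loading factor Cdc6 had the widest gap of all 41 genes, 62.3, 83.6 and 72.1 normalized reads in the controls against 17.3, 17.9 and 12.5 in anti-B7-H3 (-2.17 ± 0.25 SE, adjusted p = 8.48e-12, edgeR). It rests on 81 reads over the 3 libraries of each group, of which 48.0% in the controls were expected background, and with background subtracted it was -2.07 (adjusted p = 2.16e-05, edgeR). Its partner Cdt1 was at -0.10, and Cdc45 and Gins2, parts of the active helicase, at -0.22 and -0.06, all without a call. Of the cyclins E, Ccne2 had 32.3, 29.9 and 41.6 normalized reads against 15.7, 18.5 and 17.9 (-0.99 ± 0.30 SE, adjusted p = 0.0028, edgeR). With background subtracted Ccne2 was at -0.14 (adjusted p = 0.84, edgeR). Ccne1 was at -0.07 and the clamp loader genes Rfc3 and Rfc4 at -0.24 and 0.10, all without a call. Control reads of Ccne1 and Rfc4 could not be told from background, so these values do not show them unchanged. Per kilobase with background subtracted, Ccne1 was at 0.230 ± 2.12 in the controls and 6.84 ± 0.814 under anti-B7-H3 (SD, n = 3). Rfc4 was at 1.03 ± 2.72 and 8.21 ± 1.33.

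**Figure D3:**
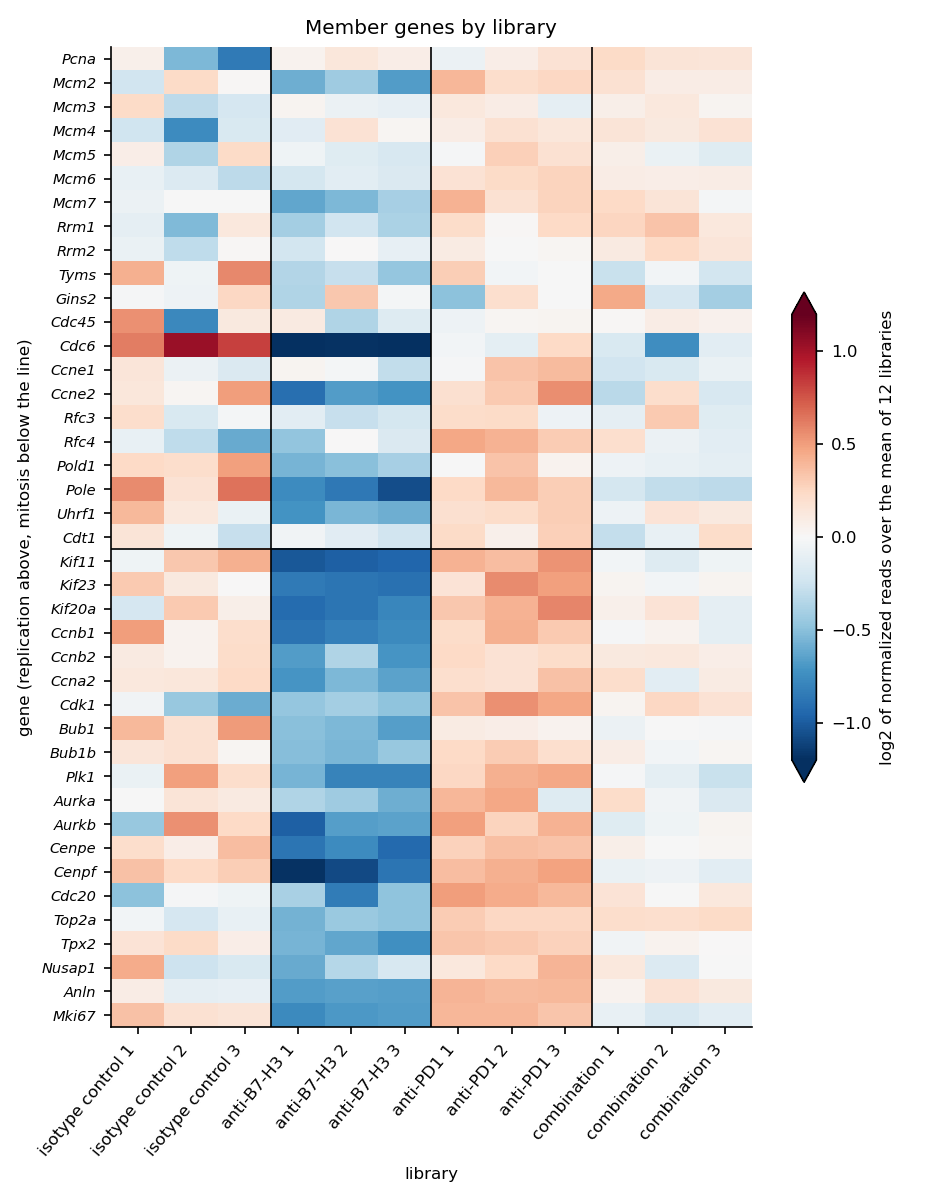
Log2 of normalized reads over the gene's mean of the 12 libraries, for the 21 replication genes (above the horizontal line) and the 20 mitosis genes (below) in each library; blue is below and red above the gene's mean. The anti-B7-H3 columns are blue for all 20 mitosis genes, which had their lowest group mean there, and mixed for replication genes, 13 of which did on this scale and 17 with background subtracted.

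The combination against anti-B7-H3 alone asks what anti-PD1 added in tumours that also received anti-B7-H3, and here expected background was under 1% of members' reads in both groups. All 20 mitosis genes were higher in the combination, and 10 of the 21 replication genes were higher with none lower, where 39.0% of all genes tested were called, 19.8% higher and 19.1% lower (edgeR quasi-likelihood test, Benjamini-Hochberg adjusted p under 0.05). Median log2 fold changes were 0.69 for mitosis and 0.22 for replication genes, against 0.01 over all genes. The median of genes above background was 0.00, and scaling over those genes left both counts as they were. Background subtraction, which leaves values of these groups almost as they are, gave 19 mitosis and 9 replication genes. An offset for effective transcript length left 18 mitosis genes but only 3 replication genes called: Mcm6, Mcm7 (0.25, adjusted p = 0.505), Rrm1, Rrm2, Ccne2, Pold1 and Pole (0.45, adjusted p = 0.303, edgeR) lost the call, as did Aurka and Nusap1. All 20 mitosis genes and 12 replication genes had no overlap between the groups, all higher in the combination, where 25.4% of genes tested were higher and 25.0% lower without overlap.

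Cenpf again had the largest difference of the mitotic set, 1.94-fold higher at 0.96 ± 0.05 SE on the log2 scale (adjusted p = 2.13e-24, edgeR), with the per-library values given above. Kif11 had 363, 332 and 357 normalized reads in combination libraries, 1.87-fold above anti-B7-H3 (0.90 ± 0.07 SE, adjusted p = 1.12e-17, edgeR). Cenpe had 509, 481 and 493 in combination libraries. Kif20a was higher by 0.90, Kif23 by 0.88, Ccnb1 by 0.79, Anln by 0.77, Ccna2 by 0.70 and Ccnb2 by 0.68 on the log2 scale. Top2a reached 1313, 1312 and 1335 normalized reads, a difference of 0.71 ± 0.05 SE from anti-B7-H3. These values lie above every isotype control library on this scale, but the direction against the controls turned once background was subtracted (-0.40, adjusted p = 1.04e-07, edgeR). Mki67 had 1744, 1624 and 1701 and stayed below every isotype control library (0.58 ± 0.05 SE from anti-B7-H3, adjusted p = 4.02e-17, edgeR). Cdk1, for which the anti-B7-H3 and isotype control libraries overlapped, was higher in the combination at 180, 209 and 198 normalized reads (0.61 ± 0.09 SE, adjusted p = 4.9e-08, edgeR). Smaller differences were those of Nusap1 at 0.37 and Aurka at 0.46. Aurka passed in all fits that left out 1 library except that without combination replicate 1 (0.34, adjusted p = 0.109, edgeR), and Nusap1 failed without anti-B7-H3 replicate 1 (0.28, adjusted p = 0.144) and without combination replicate 1 or 3 (0.30 and 0.36).

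Replication genes higher in the combination were Cdc6 by 1.04, Uhrf1 by 0.69, Mcm2 by 0.68, Ccne2 by 0.67, Mcm7 by 0.64, Pole by 0.61, Rrm1 by 0.58, Pold1 by 0.40, Rrm2 by 0.26 and Mcm6 by 0.26 on the log2 scale. Rrm1, for example, had 429, 453 and 391 normalized reads in combination libraries, above all 3 of anti-B7-H3. Ccne2, with 23.5, 33.9 and 25.7 normalized reads, was not called without combination replicate 2 (0.53, adjusted p = 0.0985, edgeR) or anti-B7-H3 replicate 1 (0.61). The call of Rrm2 was lost without either anti-B7-H3 replicate 1 (0.23, adjusted p = 0.1, edgeR) or combination replicate 2 (0.24). Pcna, at 274, 261 and 258 in combination libraries, was at 0.09 ± 0.08 SE (adjusted p = 0.406, edgeR). Mcm3, Mcm4, Mcm5, Tyms, Gins2, Cdc45, Cdt1, Ccne1, Rfc3 and Rfc4 were not called either, with log2 fold changes from -0.07 to 0.22.

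**Figure D4:**
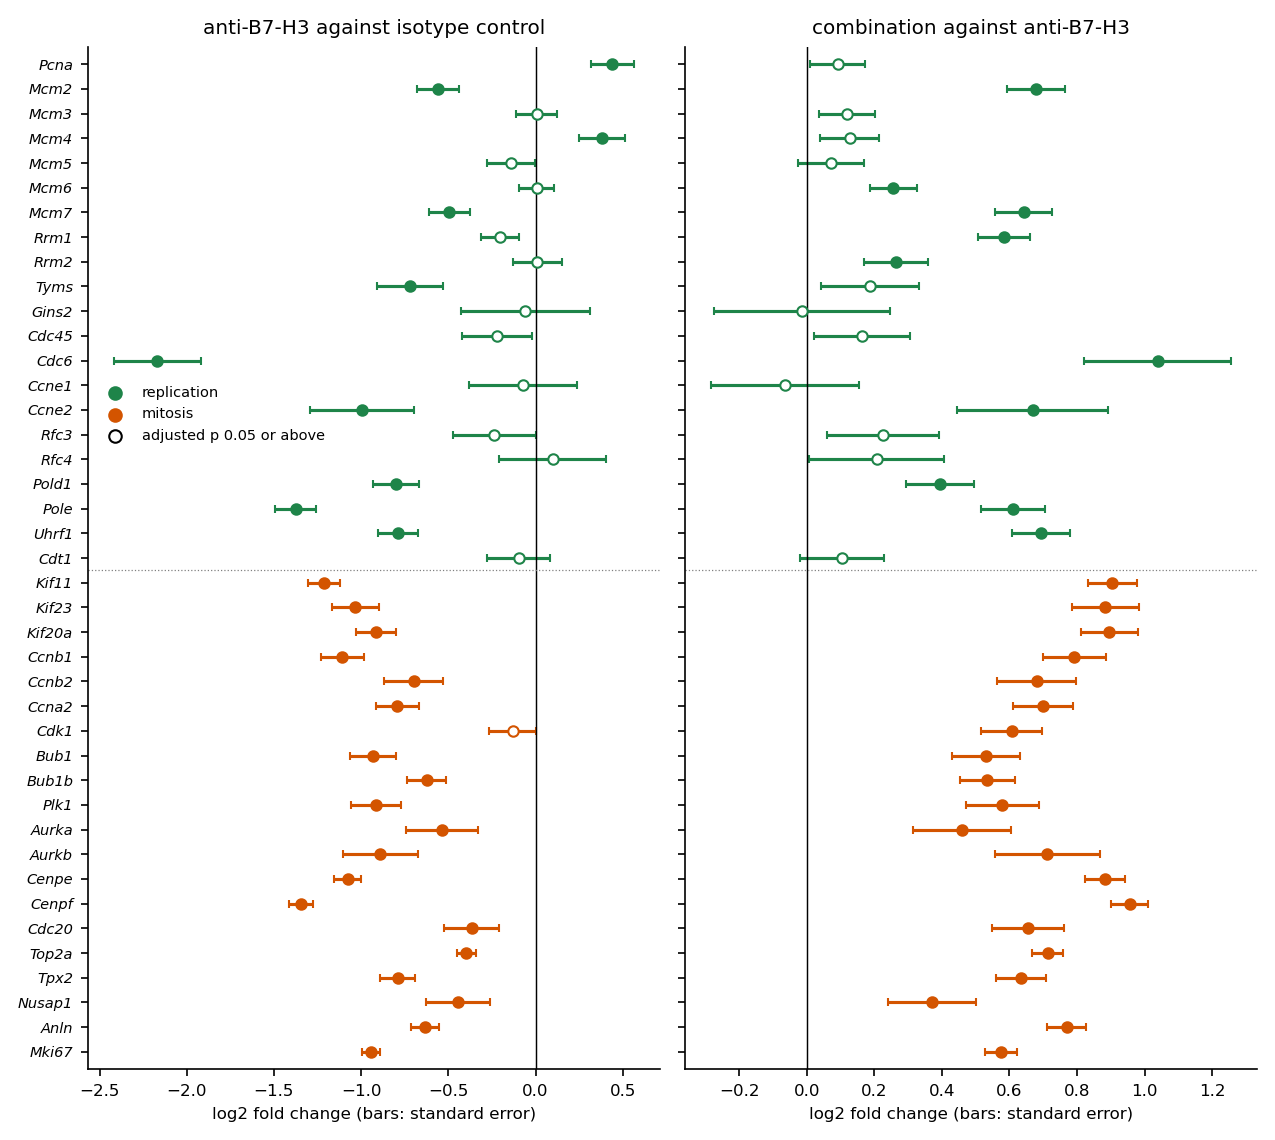
Log2 fold change of each gene with its standard error, for anti-B7-H3 against isotype control (left) and combination against anti-B7-H3 (right); green marks replication and orange mitosis genes, and filled points have an adjusted p under 0.05 (edgeR). Mitosis genes lie left of 0 in the first panel, from -1.34 to -0.13, and right of 0 in the second, from 0.37 to 0.96; the 2 panels share the anti-B7-H3 libraries, so they are not independent.

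Set against each other, the single antibodies differed for all 20 mitosis genes, each lower in anti-B7-H3 than in anti-PD1, and for 13 replication genes, also lower, where 62.0% of all genes tested were called, 31.6% lower and 30.4% higher. No overlap was seen for all 20 mitosis and 14 replication genes, each lower in anti-B7-H3, where 33.6% of genes tested were lower and 32.8% higher without overlap. Medians were -1.03 for mitosis and -0.39 for replication genes. Cenpf was 2.77-fold and Kif11, at 496, 479 and 539 normalized reads in anti-PD1, 2.69-fold lower in anti-B7-H3. Mki67 had 2438, 2441 and 2331 in anti-PD1 libraries, 2.12-fold above anti-B7-H3 (-1.08 ± 0.05 SE, adjusted p = 6.8e-32, edgeR). Cdk1 was lower in anti-B7-H3 here too, by 0.90 on the log2 scale from 222, 256 and 242 in anti-PD1. Pcna, at 223, 248 and 265 in anti-PD1, overlapped anti-B7-H3 (0.02 ± 0.09 SE, adjusted p = 0.85, edgeR), as did Mcm3 at -0.09 and Mcm4 at -0.11.

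The combination also differed from anti-PD1 alone, in the other direction. Of the mitosis genes 14 were lower and none higher, and of the replication genes only Pole was called, also lower, where 46.5% of all genes tested were called, 23.4% lower and 23.1% higher (edgeR quasi-likelihood test, Benjamini-Hochberg adjusted p under 0.05). Without overlap, 18 mitosis and 9 replication genes were lower and 1 replication gene higher, where 27.1% of genes tested were lower and 26.9% higher. Kif11 was lower by 0.52 ± 0.07 SE, Cenpf by 0.51 ± 0.05 SE, Mki67 by 0.51 ± 0.05 SE and Plk1 by 0.51 ± 0.10 SE on the log2 scale. Pole was at -0.58 ± 0.09 SE, from 242, 267 and 250 normalized reads in anti-PD1 to 176, 167 and 164 in combination. Top2a, at 1407, 1346 and 1346 in anti-PD1, was at -0.05 ± 0.05 SE (adjusted p = 0.382, edgeR). The genes above background had a median of 0.11 in this comparison, and scaling over them gave 18 mitosis and 11 replication genes called lower and none higher, whereas the effective-length offset left 4 mitosis genes and 1 replication gene lower. Bub1b (-0.22 ± 0.08 SE) was the least secure call, at -0.16 (adjusted p = 0.153, edgeR) without combination replicate 2 and lost in 6 of the 12 fits that left out 1 library. Cdk1 (-0.29) and Aurkb (-0.44) were at -0.21 (adjusted p = 0.0828) and -0.37 (adjusted p = 0.0617) without combination replicate 1, and Aurkb was at -0.40 without anti-PD1 replicate 1.

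For anti-PD1 alone against isotype control the direction of several differences depended on the treatment of background. On the TMM scale 7 mitosis genes (Anln, Cdc20, Cdk1, Kif11, Kif20a, Mki67 and Top2a) and 6 replication genes (Pcna, Mcm2, Mcm4, Mcm6, Mcm7 and Rrm1) were higher and only Cdc6 lower, where 38.3% of all genes tested were called, 17.5% higher and 20.9% lower. Without overlap, 8 mitosis and 4 replication genes were higher and 1 of each lower, where 21.1% of genes tested were higher and 24.3% lower. Medians were 0.18 and 0.14, or 0.00 and -0.04 relative to genes above background. Scaling over the genes above background left 4 mitosis genes higher and 1 lower and 3 replication genes lower, and background subtraction gave 6 mitosis genes lower and none higher. Cdk1 had the largest called rise (0.77 ± 0.13 SE, adjusted p = 1.04e-06, edgeR), and with background subtracted it was at 0.31 (adjusted p = 0.12). Mki67 was at 0.14 ± 0.05 SE on the TMM scale but -0.049 with scaling over genes above background and -0.38 with background subtracted, and Top2a was at 0.37 ± 0.06 SE and then -0.15 with background subtracted. Cdc20, with 179, 172 and 165 normalized reads in anti-PD1, was at 0.63 ± 0.15 SE and then 0.39 (adjusted p = 0.13, edgeR). Of these calls 8 were lost in at least 1 of the 12 fits that left out 1 library. Mcm2, Mcm7, Rrm1 and Mki67 were each lost in 4 such fits and Kif11 in 3. Without isotype control replicate 1 the members called were 9 in place of 14, with Kif11 at 0.06 (adjusted p = 0.658) and Kif20a at 0.24 (adjusted p = 0.105, edgeR).

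The combination against isotype control showed both directions. Cdk1 and Top2a were higher and Bub1, Ccnb1, Cenpe, Cenpf, Kif11, Mki67 and Plk1 lower among mitosis genes, and Pcna, Mcm4, Mcm6 and Rrm1 were higher and Cdc6, Pold1, Pole and Tyms lower among replication genes, where 57.3% of all genes tested were called, 27.8% higher and 29.5% lower. Without overlap, 3 mitosis and 5 replication genes were higher and 5 and 3 lower, where 30.6% of genes tested were higher and 30.7% lower. With scaling over the genes above background none of the 41 was called higher, and 13 mitosis and 6 replication genes were lower. With background subtracted 15 mitosis genes were lower and none higher, Top2a turning from 0.32 ± 0.05 SE to -0.40 (adjusted p = 1.04e-07, edgeR) and Cdk1 from 0.48 to -0.18. With the satellite-like genes left out, and likewise with no filter on low counts, none of the 7 lower mitosis calls passed and 5 mitosis genes were called higher: with the satellite-like genes left out Kif11 was at -0.039, Ccnb1 at -0.047, Plk1 at -0.067, Bub1 at -0.13 and Cenpe, its sign turned, at 0.075. Of these 7 genes all but Cenpe kept their direction in every alternative run, among them Cenpf (-0.39 ± 0.06 SE) and Mki67 (-0.37 ± 0.05 SE). Bub1, Cenpf and Mki67 were called in every fit that left out 1 library. With the satellite-like genes left out, Cenpf was at -0.12 (adjusted p = 0.105) and Mki67 at -0.10 (adjusted p = 0.102, edgeR). With no filter on low counts they were at -0.09 and -0.07, and neither was called in either setting. The calls of Ccnb1, Plk1 and Cenpe were each lost in 7 of the 12 fits that left out 1 library: Ccnb1 was at -0.19 without isotype control replicate 1, Plk1 at -0.21 without isotype control replicate 2 and Cenpe at -0.08 without combination replicate 2. Comparisons with isotype control share its 3 libraries, so counts from these fits are not independent of each other.

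The interaction of the 2 antibodies asks whether both together act as their separate log2 effects added up. It was above 0 for 14 mitosis and 5 replication genes and below 0 for none that passed, where 36.4% of all genes tested were called, 19.1% above and 17.3% below (edgeR quasi-likelihood test, Benjamini-Hochberg adjusted p under 0.05). Equivalently, anti-B7-H3 lowered these genes less in the presence of anti-PD1: Cenpf fell by 1.34 against isotype control and by 0.51 from anti-PD1 to combination, an interaction of 0.83 ± 0.08 SE (adjusted p = 3.79e-13). The largest value was that of Cdc6 at 1.82 ± 0.32 SE, which rests on the few control reads described above. Other large values were Bub1 at 0.83 ± 0.17 SE, Pole at 0.79 ± 0.14 SE, Cenpe at 0.78 ± 0.09 SE, Ccnb1 at 0.76 ± 0.15 SE and Kif11 at 0.69 ± 0.11 SE. With the effective-length offset 7 mitosis and 3 replication genes passed, and Pole was at 0.093 (adjusted p = 0.893) and Anln at 0.026 (adjusted p = 0.94, edgeR). The medians were 0.46 for mitosis and 0.12 for replication genes, and 0.64 and 0.30 relative to genes above background, which had a median of -0.18. Bub1 had 168, 146 and 183 normalized reads in the controls, 91.2, 88.6 and 81.5 under anti-B7-H3, 138, 136 and 133 under anti-PD1 and 122, 128 and 127 in combination. Cdk1 (-0.16 ± 0.16 SE) and Cdc20 (0.02 ± 0.18 SE) were not called. The value of Mcm2 (0.39 ± 0.15 SE) lost its call in 8 of the 12 fits that left out 1 library and was at 0.29 (adjusted p = 0.167) without isotype control replicate 2; Ccnb2 was at 0.49 (adjusted p = 0.0604) without anti-B7-H3 replicate 3 and Bub1b at 0.34 (adjusted p = 0.0543, edgeR) without anti-B7-H3 replicate 2.

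Per-library values of 5 other members called in the interaction had the same shape, lowest with anti-B7-H3. That shape is in part set by the choice, since low anti-B7-H3 values raise the interaction. All 20 mitosis genes, called in the interaction or not, had their lowest group mean there. Tpx2 had 300, 314 and 283 normalized reads in the controls, 182, 174 and 161 with anti-B7-H3, 338, 334 and 325 with anti-PD1 and 260, 275 and 268 with both. Kif23 had 203, 176 and 164 in the controls, 90.3, 88.9 and 87.5 with anti-B7-H3, 182, 242 and 229 with anti-PD1 and 166, 159 and 167 with both. For Tpx2 the combination lay below every control library, whereas for Kif23 it reached into their range. Pold1 had 168, 164 and 200 in the controls, 96.7, 101 and 108 with anti-B7-H3, 142, 180 and 147 with anti-PD1 and 137, 133 and 132 with both. Mcm2 had 171, 236 and 202 in the controls, 133, 150 and 126 with anti-B7-H3, 265, 232 and 238 with anti-PD1 and 228, 214 and 213 with both. Mcm2 values of the combination thus lay among those of the controls, and those of Pold1 below them. Kif20a had 238, 341 and 288 in the controls, 144, 150 and 160 with anti-B7-H3, 343, 367 and 411 with anti-PD1 and 286, 307 and 255 with both. In each of these 5 genes every anti-B7-H3 library was the lowest against all other groups.

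Levels were compared between genes per kilobase of coding length after scaling for library size, with background subtracted. In anti-B7-H3 tumours Pcna stood first at 113 ± 3.38 (SD, n = 3), followed by Top2a at 62.6 ± 2.72, Cdk1 at 51.2 ± 1.38 and Mki67 at 42.4 ± 1.47. Mki67 and the next gene, Rrm1 at 42.4 ± 2.76, did not differ beyond their spread. In isotype control the first places were Top2a at 135 ± 1.62, Mki67 at 134 ± 8.43 and Pcna at 133 ± 43.6, which did not differ beyond their spread. In anti-PD1 the order began with Pcna at 128 ± 11.6, Top2a at 122 ± 2.48, Cdk1 at 110 ± 8.70 and Mki67 at 103 ± 2.88, and in combination with Pcna at 120 ± 3.84, Top2a at 103 ± 1.10 and Cdk1 at 78.2 ± 5.79. The gap between Pcna and Top2a exceeded both their SDs in anti-B7-H3 and in combination, and did not in anti-PD1. The lowest levels in anti-B7-H3 were those of Cdc6 at 3.19 ± 0.596, Ccne2 at 5.07 ± 0.430 and Pole at 5.72 ± 0.610.

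Other genes of the same processes, listed by function, showed the same split. These lists, like the members, were chosen with earlier results of these data known, so they are no independent test. Of 65 further mitosis genes 57 were lower in anti-B7-H3 than in the controls and none higher (median -0.95), 58 were higher in combination than in anti-B7-H3 and none lower (median 0.72), and 63 were lower and 1 higher in anti-B7-H3 than in anti-PD1. Over all genes tested the shares were 33.3% lower and 30.8% higher, 19.8% higher and 19.1% lower, and 31.6% lower and 30.4% higher in these comparisons. Troap, a spindle-associated protein, fell by 1.95 on the log2 scale and the checkpoint kinase Ttk by 1.51 against isotype control, and Troap was higher by 1.11 and Cdc25c, the phosphatase that activates Cdk1, by 1.25 in combination against anti-B7-H3. Of 52 further replication genes 27 were lower and 3 higher in anti-B7-H3 than in the controls (median -0.46), and 22 were higher and none lower in combination than in anti-B7-H3 (median 0.33), to be read against the same shares. The origin recognition gene Orc1 fell by 3.17, although its 75 reads in the controls compare with 55.4 expected from background. Timeless, a fork protection factor, was higher by 1.07 in combination than in anti-B7-H3.

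Of 44 tested regulators that set the pace of the cycle, 11 were higher and 18 lower in anti-B7-H3 than in the controls, where 30.8% of all genes were higher and 33.3% lower, so that the count does not set them apart. Ccnd2, a cyclin of the step that commits cells to S phase, was higher by 1.64 ± 0.15 SE (82 reads in the controls, 1149 under anti-B7-H3, 358 under anti-PD1 and 910 in combination), and the antiproliferative gene Btg2 was called higher, with 171 reads against 5 in the controls, where 10.5 were expected from background, so that its fold has no firm base. E2f7, a repressor among E2F factors, was lower in anti-B7-H3 than in anti-PD1 by 1.95 and higher by 0.99 in combination than in anti-B7-H3. Mybl2, which activates mitotic genes, fell by 5.40 in anti-B7-H3 against isotype control, from 38161 to 4135 reads. Mki67 had 2472 reads in the same libraries, and Mybl2 falls over the groups in the same order as the satellite-like share; whether its reads stem from its own transcript was not tested.

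**Figure D5:**
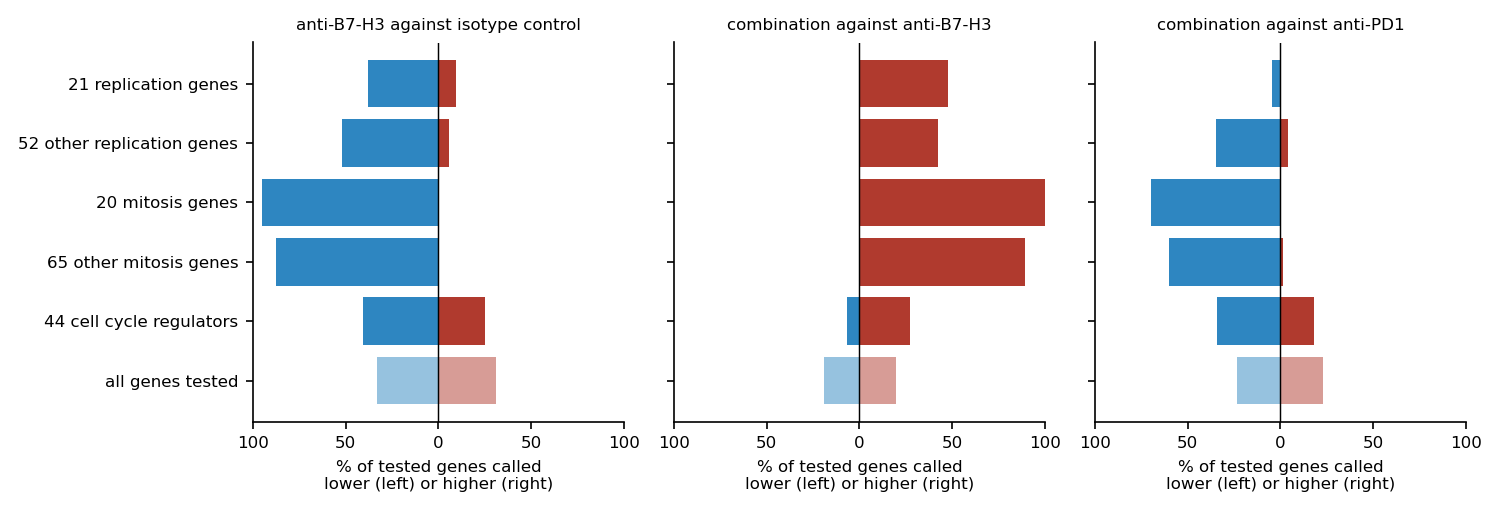
Share of tested genes called lower (left, blue) or higher (right, red) at an adjusted p under 0.05 (edgeR) in 3 comparisons, for the replication and mitosis genes, further genes of both processes, cell cycle regulators and all genes tested (pale). Mitosis genes stand at 19 of 20 lower, 20 of 20 higher and 14 of 20 lower, while the pale bars for all genes are close to balanced.

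Markers of other cell types moved over the same groups. Summed normalized reads of 10 macrophage markers ran from 2206 to 2354 in the controls, 19176 to 19338 under anti-B7-H3, 3114 to 3292 under anti-PD1 and 9452 to 9502 in combination, and those of 7 fibroblast markers from 13115 to 15114, 48760 to 49830, 28851 to 30620 and 31619 to 32047. The libraries with the lowest Cenpf and Mki67, those of anti-B7-H3, had the highest sums of both lists, and all 10 macrophage markers were called higher than in the controls. Sums of 8 melanocyte lineage markers ran from 740 to 875, 243 to 269, 708 to 753 and 426 to 442, and Dct and Tyrp1 were at 0 reads in all anti-B7-H3 libraries. B and plasma cell markers (5 genes) were at 57.7 to 116 in the controls, 810 to 847 under anti-B7-H3, 33.6 to 44.1 under anti-PD1 and 139 to 143 in combination, and T and natural killer cell markers (8 genes) at 128 to 141, 178 to 186, 38.2 to 45.9 and 77.8 to 89.9. Endothelial markers (4 genes) were at 266 to 305, 434 to 464, 201 to 223 and 325 to 356. Sums of 4 keratinocyte markers were 170 to 213, 0 to 1.12 (with Krt5, Krt14 and Krt1 at 0), 81.9 to 122 and 3.7 to 7.6 in the same order of groups, and those of 4 skeletal muscle markers 158 to 209, 1.12 to 3.72 (with Myh4 at 0), 116 to 156 and 565 to 600.5. Red blood cell markers (4 genes) were at 157 to 229, 160 to 175, 458 to 547 and 124 to 138. In the controls much of the smaller sums was expected background: keratinocyte markers had 218 reads where 149 were expected, skeletal muscle 210 where 189, B and plasma cell 95 where 99.4, T and natural killer cell 150 where 133 and endothelial 319 where 263. Skeletal muscle markers stood far above background in the combination, with 2594 reads where 18 were expected. The part of these cell types in the levels of mitotic and replication genes was not tested.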

How the data were processed

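Bulk tumour RNA in 12 libraries (4 groups of 3) was analysed. Per the labels' protocols, samples needed 500 ng of RNA and an RNA integrity number of 7.0, and TruSeq libraries were made after ribosomal RNA was removed. The build (GRCm38) and the use of FastQC 0.11.8 are given per the submitters' processing notes; the aligner or quantifier was not given in the sources used here. The estimated counts that the authors deposited per transcript, per the file headers, were summed to 22195 genes with GENCODE release M21 (610 of 58083 transcripts unmatched) and rounded. The deposited TPM values were not used.

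Counts were tested with edgeR 4.0.16 in R 4.3.3 (TMM, filtering by expression, quasi-likelihood F test with robust spread, 1 mean per group, 12 libraries in 1 fit; 13478 genes), with calls made where the p adjusted by Benjamini-Hochberg was under 0.05. The 6 comparisons and the interaction were fitted on all genes, and adjusted p-values come from that fit unless a setting is named. Errors of log2 fold changes are standard errors. Background was reads per kilobase over 1545 chemoreceptor genes; genes above background had at least 5 times it and 120 reads over the 12 libraries. Satellite-like genes each took at least 0.1% of isotype control reads and a far larger share of reads there than in anti-B7-H3. Alternatives were DESeq2 1.42.0 size factors and its Wald test, no filter, a fit of just the compared groups, replicate number as a block, an offset for effective length, satellite-like genes left out, both scalings over genes above background, a spread that is not robust, calls of at least 1.5-fold and each library left out.

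Values per library are given for the members with the most reads of each role, at most 2 per role, for members called in the interaction and for some others; of other lists, up to 2 called genes per direction and comparison with the largest log2 fold change and at least 30 reads, of which part are named. The members and lists were chosen with earlier results of these data known. Library totals were 3593110 to 21298142 reads, and counts cover counting error only.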

Additional observations from a re-analysis of the deposited data

Results flagged for a closer look

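The 19 members below were singled out because the effect of anti-B7-H3 differed by a test of the interaction between tumours without and with anti-PD1 (edgeR quasi-likelihood test, Benjamini-Hochberg adjusted p under 0.05 over all genes, n = 3 libraries per group). Each value is (combination minus anti-PD1) minus (anti-B7-H3 minus isotype control) on the log2 scale, and all are positive. Spindle and cytokinesis genes were Top2a at 0.35, Anln at 0.35, Tpx2 at 0.48, Kif20a at 0.51, Kif23 at 0.63 and Kif11 at 0.69. Cyclins were Ccnb2 at 0.59, Ccna2 at 0.62 and Ccnb1 at 0.76, and checkpoint genes were Bub1b at 0.40 and Bub1 at 0.83. Kinetochore genes were Cenpe at 0.78 and Cenpf at 0.83, and Mki67 was at 0.44. Replication genes were Mcm2 at 0.39, Pold1 at 0.58, Uhrf1 at 0.63, Pole at 0.79 and Cdc6 at 1.82. Genes tested were called above 0 in 19.1% of cases. The satellite-like share and the marker sums given above differ over the same 4 groups, and their part in these values was not tested.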

How the results depend on the processing

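Counts of members called were 29 in anti-B7-H3 against isotype control, 14 in anti-PD1 against isotype control, 17 in combination against isotype control, 30 in combination against anti-B7-H3, 15 in combination against anti-PD1, 33 in anti-B7-H3 against anti-PD1 and 19 in the interaction. Leaving out 1 library at a time gave 26 to 30, 9 to 17, 12 to 17, 27 to 30, 13 to 17, 31 to 33 and, for the interaction, 17 to 22, the 9 being without isotype control replicate 1. For anti-PD1 against isotype control the count was 7 with the effective-length offset, 24 with satellite-like genes left out, 8 with scaling over genes above background, 9 with background subtracted as well and 3 for calls of at least 1.5-fold. For combination against isotype control it was 9 with the offset and 2 for calls of at least 1.5-fold. For combination against anti-PD1 it was 5 with the offset, 29 with scaling over genes above background, 24 with background subtracted, 24 without the isotype control libraries (an alternative chosen after seeing the data) and 0 for calls of at least 1.5-fold. For the interaction it was 10 with the offset and 11 for calls of at least 1.5-fold. The 1.5-fold rule calls fewer genes by construction; for the others the cause was not tested. The 3 remaining comparisons stayed within 1.5 times their count of all members in every alternative run, although in combination against anti-B7-H3 the replication genes went from 10 to 3 with the offset.

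Of the values of single called members, 3257 kept direction and call, 238 lost the call and 18 changed sign. With background subtracted, signs changed in anti-PD1 against isotype control for Pcna (-0.094), Mcm7 (-0.039), Rrm1 (-0.14), Kif11 (-0.23), Top2a (-0.15), Anln (-0.0092) and Mki67 (-0.38), in combination against isotype control for Pcna (-0.18), Mcm6 (-0.24), Rrm1 (-0.24), Cdk1 (-0.18) and Top2a (-0.40), and in anti-B7-H3 against isotype control for Pcna (-0.28). The other sign changes were Mki67 (-0.049, anti-PD1) and Mcm6 (-0.032, combination) with scaling over genes above background, Mcm2 (-0.015, anti-PD1) with the offset, and Cenpe in combination against isotype control with no filter (0.11) and with satellite-like genes left out (0.075). The cause was not tested.

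Replicate numbers did not pair the libraries: none of 18 same-numbered pairs had a correlation of deviations over 0.1 (-0.14 to 0.085 over 8383 genes), and 3 of 12 libraries correlated best with their own number. With a replicate block the counts were 29, 13, 17, 30, 15, 33 and 19, and the only call lost was Rrm1 in anti-PD1 against isotype control (0.29, adjusted p = 0.0674, edgeR). Depth limits the low members most: Gins2, Ccne1, Ccne2, Rfc4, Rfc3 and Cdc6 had 22 to 81 reads over the 3 isotype control libraries, much of it expected background.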
